A study of Rattus norvegicus with 9 samples.

Results

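Neuron-glia adhesion molecules were followed through female puberty in the rat hypothalamus, as 7 genes measured by 13 probe sets on Affymetrix expression arrays: Ncam1, L1cam, Nrcam, Cntn1, Cntnap1, Ptprz1 and Nlgn1. A probe set is the group of short array probes that reads out a single transcript target. All probe sets whose platform annotation gives exactly 1 symbol, that of a listed gene, were taken, which is 13 of 31042 probe sets and 7 of 14217 named genes. All 13 also passed the filter on dim signal that left 18625 probe sets for testing. Each array held hypothalamic RNA of 1 normal female rat, and the stages were juvenile (26 days old, 3 rats), early pubertal (29 days old, 3 rats) and late pubertal (31 days old, 3 rats). The labels treat the juvenile rats as controls. They state neither strain, nor how puberty was staged, nor litters.

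Cell adhesion molecules of these families hold neurons to each other, to glial cells and to the matrix. Ncam1, L1cam and Nrcam carry immunoglobulin domains and bind like molecules or relatives on a facing membrane. Cntn1 (contactin) is tethered to the neuronal surface by a lipid anchor and pairs with Cntnap1, also called Caspr, in the axon membrane, and with Ptprz1, a receptor tyrosine phosphatase found mainly on astrocytes and oligodendrocyte precursors, across the gap between cells. Nlgn1 (neuroligin) sits on the receiving side of excitatory synapses and binds neurexins. In the hypothalamus, the neurons that make gonadotropin-releasing hormone and so set off puberty lie against astrocytes and tanycytes, and the contactin and Ptprz1 pair has been described at those contacts in the rat.

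The arrays as a whole set the precision. Median signal ran from 102 to 113 in juvenile, 79.8 to 101 in early pubertal and 102 to 122 in late pubertal arrays, so log2(signal + 16) was quantile-normalized before any comparison, and each level below is on that scale. The ratio of beta-actin signal near the 3′ end to that near the 5′ end, a measure of RNA integrity that is larger in degraded RNA, ran from 2.40 to 3.16 in juvenile, 2.14 to 2.86 in early pubertal and 2.27 to 3.24 in late pubertal arrays. All 8 peptide genes used as markers of hypothalamic neurons passed the signal filter, the dimmest being Crh at a mean log2 level of 6.94. Only 3 animals per stage limit every comparison.

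The comparison of stages asked which of these adhesion genes differed as puberty began and advanced, and no member passed it. Late pubertal and juvenile animals differed most at a dim Ncam1 probe set, higher by 0.64 on the log2 scale, and at Cntnap1, lower by 0.62, while L1cam and the brightest Nrcam, Ncam1 and Ptprz1 probe sets differed by 0.06 or less. Limma with Benjamini-Hochberg adjustment over all tested probe sets called 0 of 13 member probe sets in any of the 3 comparisons, with adjusted p from 0.994 to 1 for early pubertal against juvenile, 1 for late pubertal against juvenile, and 0.914 to 0.997 for late against early pubertal animals. The share of all tested probe sets called was 0% in each of these comparisons. At an unadjusted limma p under 0.05, 0 of 13 stood out in early pubertal against juvenile animals (4.46% of all tested), 2 of 13 in late pubertal against juvenile (4.14%) and 0 of 13 in late against early pubertal animals (5.21%). A moderated F test over the 3 stages called 0 of 13 member probe sets, where the share called among all tested was 0%. The unadjusted F test p was under 0.05 for 2 of 13, against 4.22% of all tested.

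Stages whose arrays did not overlap were counted beside the share of all tested probe sets. In early pubertal against juvenile animals this held for 1 of 13 probe sets (8.3% of all tested), with 0 higher (3.86%) and 1 lower (4.43%). In late pubertal against juvenile animals it held for 1 of 13 (11.4%), with 1 higher (5.9%) and 0 lower (5.52%), and in late against early pubertal animals for 0 of 13 (11.3%). The median difference over the 13 probe sets was −0.0004, −0.02 and −0.01 in these 3 comparisons, beside −0.001, −0.001 and 0.0004 over all tested probe sets. There were 7, 8 and 9 of 13 below 0, where 50.4%, 50.4% and 49.9% of all tested probe sets were. On the deposited scale, where the median of all tested probe sets lay at −0.24, −0.02 and 0.22, these counts were 12, 11 and 1 of 13. After median centring, which left that median at −0.03, −0.03 and −0.0005, they were 9, 11 and 8. The first 2 comparisons share the juvenile arrays and are not independent. In bulk tissue, fewer cells of a type and less RNA per cell cannot be told apart.

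**Figure D1:**
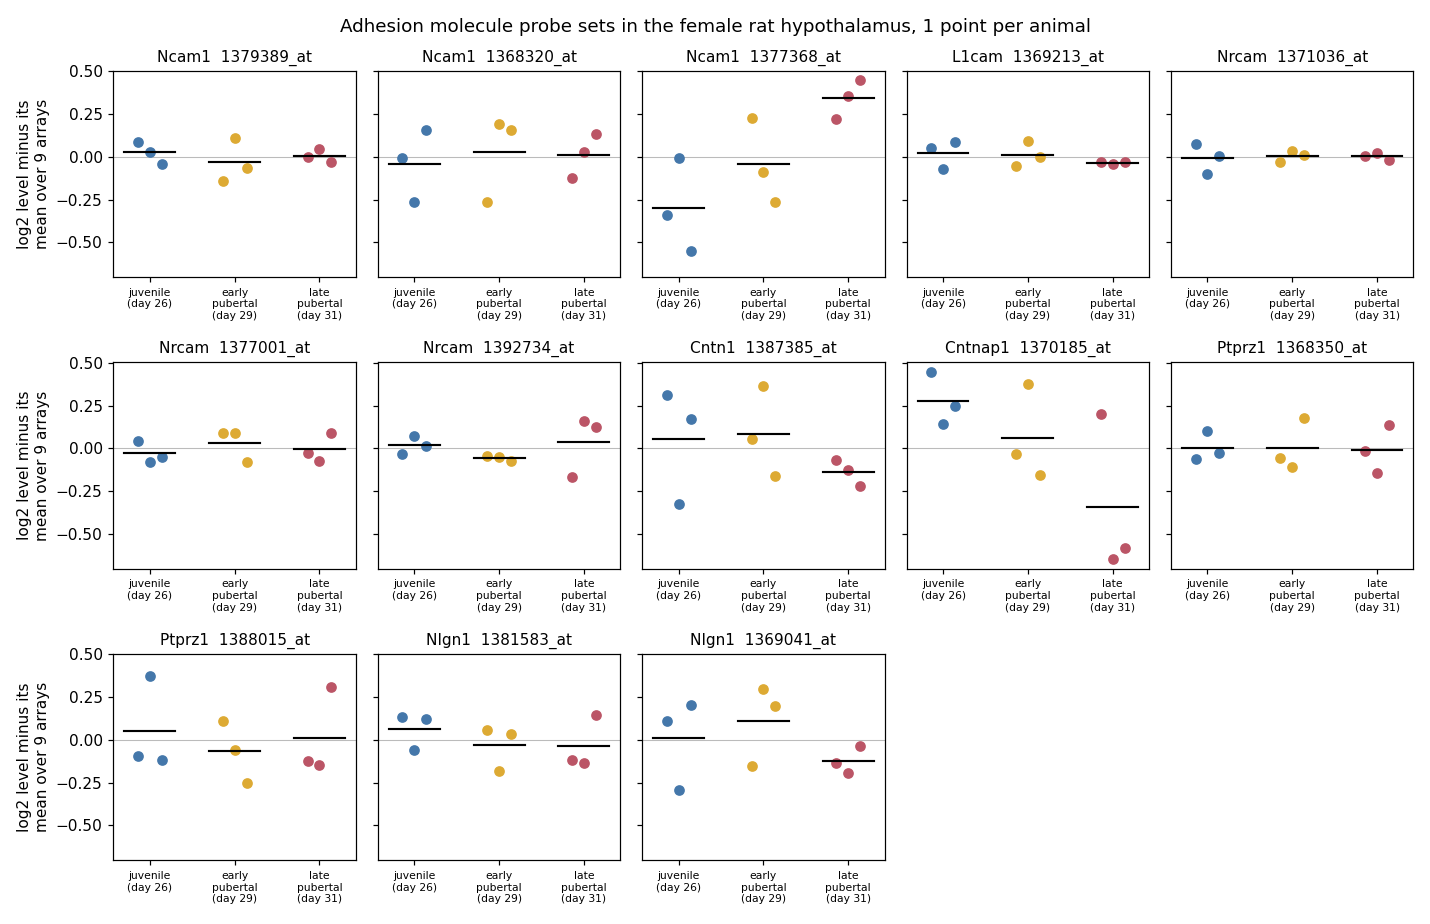
Normalized log2 level of each member probe set minus its own mean over the 9 arrays (vertical axis), by stage (horizontal axis). Each point is 1 animal and each bar the mean of 3. Ncam1 1377368_at is the member whose late pubertal points all lie above the juvenile points, and Cntnap1 has 2 of 3 late pubertal points far below the rest.

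Ncam1, the neural cell adhesion molecule, whose polysialylated form loosens contacts between cells, was read by 3 probe sets that did not move together. On 1377368_at, juvenile replicates 1, 2 and 3 had deposited signals of 118, 144 and 89.2. Early pubertal replicates 7, 8 and 10 had 163, 115 and 88.4, while late pubertal replicates 12, 14 and 20 had 163, 183 and 229.7. In the same order, normalized log2 levels were 6.93, 7.26 and 6.72 in juvenile, 7.50, 7.18 and 7.01 in early pubertal, and 7.49, 7.62 and 7.72 in late pubertal animals. All 3 late pubertal animals were thus above all juvenile animals, early pubertal replicate 7 reached the late pubertal range, and the other early pubertal animals lay among the juvenile ones. The log2 difference of late pubertal from juvenile animals was 0.64 ± 0.18 (SE, n = 3 per stage), or 1.56-fold, with a 95% interval from 0.25 to 1.03, and a limma adjusted p of 1. Its unadjusted limma p was 0.00362. The difference was 0.26 ± 0.18 in early pubertal against juvenile animals (limma adjusted p 0.994) and 0.38 ± 0.18 in late against early pubertal animals (limma adjusted p 0.914).

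The other Ncam1 probe sets gave small differences. On 1379389_at, the brightest of the gene, levels ran from 9.97 to 10.09 in juvenile, 9.86 to 10.12 in early pubertal animals, with 9.98 to 10.05 in late pubertal animals. Its difference of late pubertal from juvenile animals was −0.02 ± 0.08, with an interval from −0.20 to 0.16. On 1368320_at the ranges were 8.10 to 8.52, 8.10 to 8.56 and 8.24 to 8.50 in the order of the stages, with a difference of 0.05 ± 0.15. Across the 9 arrays 1377368_at correlated with these at Pearson r = −0.14 and −0.33 (exact permutation p 0.725 and 0.385; Spearman rho −0.08 and −0.32; r = 0.11 and −0.32 without the 2 arrays farthest from the median). The dim 1377368_at was the dimmest of the 13, at the 57.1th percentile of mean brightness over all 31042 probe sets, while the other 12 lay between the 74.6th and 95.6th. Its gene name rests on the platform annotation alone: whether its target sequence belongs to Ncam1, and which transcript forms the 3 probe sets read, was not analysed here.

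L1cam, a neuronal adhesion molecule of axon growth and bundling, had the smallest range over the 9 arrays of all members, 0.16, though Nrcam 1371036_at had the smaller SD (0.0479, against 0.0619 for L1cam). Its level was 10.23, 10.10 and 10.26 in the 3 juvenile animals, 10.12, 10.26 and 10.17 in the early pubertal animals, and 10.14, 10.13 and 10.14 in the late pubertal animals. The late pubertal animals lay close together inside the spread of the other stages. The difference was −0.01 ± 0.07 (SE, n = 3 per stage) in early pubertal animals and −0.06 ± 0.07 in late pubertal animals, relative to juvenile ones, with 95% intervals from −0.17 to 0.15 and from −0.22 to 0.10. The range was smaller than in all but 1.72% of tested probe sets, whose median range was 0.54.

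Nrcam, an L1 relative placed at nodes of Ranvier and along growing axons, had 3 probe sets, all of them with little movement. The brightest, 1371036_at, had a mean of 9.83 ± 0.09 (SD, n = 3) at the juvenile stage, 9.85 ± 0.03 at the early and 9.84 ± 0.02 at the late pubertal stage, and its differences from juvenile were 0.01 ± 0.08 (SE) in both pubertal stages. On 1377001_at they were 0.06 ± 0.10 in early and 0.02 ± 0.10 in late pubertal animals. The third, 1392734_at, was the member whose early pubertal and juvenile arrays did not overlap, with levels of 8.51, 8.50 and 8.48 in early pubertal animals against 8.52, 8.62 and 8.57 in juvenile animals. That separation was narrow: the difference was −0.07 ± 0.11 with a limma adjusted p of 0.994, and late pubertal animals spread from 8.38 to 8.71 across both.

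Cntnap1, the axonal partner of contactin at the junction between axon and myelin, had the widest range of all members, 1.10 on the log2 scale. Its deposited signal was 753, 539 and 539 in the juvenile animals, 444, 517 and 341 in the early pubertal animals, and 519, 292 and 357 in the late pubertal animals. Normalized levels were 9.35, 9.04 and 9.15 in juvenile, 8.87, 9.28 and 8.74 in early pubertal, and 9.10, 8.25 and 8.32 in late pubertal animals. Late pubertal replicates 14 and 20 stood below all other arrays, whereas replicate 12 lay among the juvenile animals, so that the stages overlapped. The log2 difference of late pubertal from juvenile animals was −0.62 ± 0.21 (SE, n = 3 per stage), 0.65 times the juvenile level, with a 95% interval from −1.08 to −0.16. Its limma adjusted p was 1, and its unadjusted limma p was 0.0119. In early pubertal against juvenile animals the difference was −0.22 ± 0.21, and in late against early pubertal animals −0.41 ± 0.21 (limma adjusted p 0.994 and 0.914). Without late pubertal replicate 12 the late pubertal difference was −0.90 with an adjusted limma p of 0.907, and without replicate 14 it was −0.47, with unadjusted limma p of 0.000196 and 0.0603.

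Cntn1, the anchored contactin itself, stood at 9.35, 8.71 and 9.21 in the juvenile animals, 9.09, 9.40 and 8.87 in the early pubertal animals, and 8.97, 8.91 and 8.82 in the late pubertal animals. The late pubertal animals and early pubertal replicate 10 were low, and juvenile replicate 2 was lower still, so the stages overlapped. The difference from juvenile was 0.03 ± 0.17 (SE, n = 3 per stage) in early and −0.19 ± 0.17 in late pubertal animals, with 95% intervals from −0.33 to 0.40 and from −0.56 to 0.17. Leaving out 1 array, the late pubertal difference ran from −0.38 without juvenile replicate 2 to −0.06 without juvenile replicate 1, and it was −0.13 without juvenile replicate 3.

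Ptprz1, the glial receptor phosphatase that binds contactin, was read by 2 probe sets. On the bright 1368350_at the juvenile animals stood at 10.48, 10.64 and 10.51, the early pubertal animals at 10.49, 10.43 and 10.72, and the late pubertal animals at 10.52, 10.40 and 10.67. No stage was set apart: the difference was −0.0004 ± 0.09 in early and −0.01 ± 0.09 in late pubertal animals relative to juvenile ones, with intervals from −0.21 to 0.21 and from −0.22 to 0.19. On 1388015_at the differences were −0.12 ± 0.16 and −0.04 ± 0.16, and juvenile replicate 2 and late pubertal replicate 20 were high, at 9.70 and 9.64, while the other arrays lay between 9.08 and 9.44.

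Nlgn1, the postsynaptic neuroligin, was read by 2 probe sets. On 1369041_at the levels were 8.57, 8.17 and 8.67 in juvenile, 8.30, 8.76 and 8.66 in early pubertal, and 8.32, 8.27 and 8.42 in late pubertal animals. All late pubertal animals were low, but juvenile replicate 2 was the lowest array and early pubertal replicate 7 lay among the late pubertal animals. Differences from juvenile were 0.10 ± 0.15 (SE) in early and −0.13 ± 0.15 in late pubertal animals, and late against early pubertal animals gave −0.23 ± 0.15 (limma adjusted p 0.914). On 1381583_at the differences from juvenile were −0.10 ± 0.11 in both pubertal stages.

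**Figure D2:**
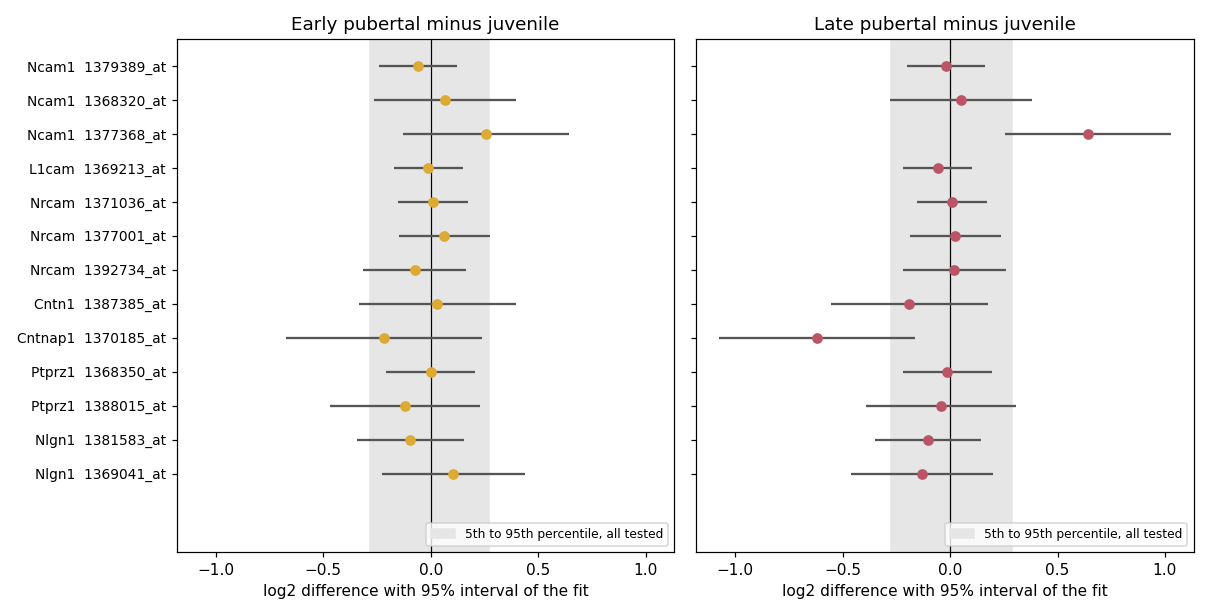
Log2 difference of each member probe set from juvenile animals (horizontal axis), in early pubertal (left) and late pubertal animals (right), with the 95% interval of the limma fit as a line. The grey band spans the 5th to 95th percentile of all tested probe sets. The late pubertal intervals of Ncam1 1377368_at (0.25 to 1.03) and Cntnap1 (−1.08 to −0.16) are the ones that leave out 0 before adjustment.

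Probe sets of the same gene followed each other poorly. Over the 8 same-gene pairs in Ncam1, Nrcam, Ptprz1 and Nlgn1, Pearson r across the 9 arrays ran from −0.33 to 0.35 with a median of 0.04, and 4 of 8 were below 0. Several of these probe sets varied little. Their ranges lay between the 2.09th percentile of all tested probe sets (Nrcam 1371036_at) and the 89.3th (Ncam1 1377368_at). Same-gene pairs of other genes were not analysed, so whether this is particular to the members was not tested. The closest pair among all 78 pairs joined different genes, L1cam and Nlgn1 1369041_at, at Pearson r = 0.91 (exact permutation p 0.0007, adjusted over 78 pairs 0.0546) and Spearman rho = 0.97 (exact p 0.000165, adjusted 0.0129). Leaving out juvenile replicate 3 and early pubertal replicate 8, the arrays farthest from the L1cam median, r was 0.83, and within stages it was 0.94. Both probe sets were above their mean over the 9 arrays in juvenile replicates 1 and 3 and early pubertal replicate 8, and below it in juvenile replicate 2, early pubertal replicate 7 and all late pubertal animals. Early pubertal replicate 10 was above it for Nlgn1 and close to it for L1cam. The brighter Nlgn1 probe set, 1381583_at, did not share this relation with L1cam. It gave r = 0.13 (exact permutation p 0.738; rho 0.08, exact p 0.843), 0.54 without the same 2 arrays and 0.01 within stages. No pair passed when the Pearson p was adjusted over the 78.

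Members were then set against array measures taken outside them, and 1 of 65 relations passed 0.05 on the adjusted Pearson p. Across the 9 arrays the 65 relations were those of the 13 probe sets with 5 measures: the actin ratio, the median signal as deposited, and scores of neuron, astrocyte and oligodendrocyte markers, each score being the mean deviation of its genes from their average over all arrays. These measures were chosen with the members' values known. The same relations were not computed for other probe sets, so whether any of them is particular to the members was not tested. Cntn1 correlated with the score of 8 neuron marker genes, Pearson r = 0.95 (exact permutation p 0.000157, adjusted 0.0102) and Spearman rho = 0.93 (exact p 0.00075, adjusted 0.0244). The relation held within stages at r = 0.99, and at r = 0.89 without juvenile replicate 1 and early pubertal replicate 8, the arrays with the most extreme scores. The neuron scores were 0.19, −0.11 and 0.12 in juvenile, −0.02, 0.16 and −0.13 in early pubertal animals, then −0.02, −0.09 and −0.10 in late pubertal animals.

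The neuron markers lay lower in the same comparison as Cntnap1. Of 8 tested genes 8 were lower in late pubertal than in juvenile animals, where 50.4% of all tested probe sets were. The median was −0.12, and 0 were called by limma. Snap25 and Rbfox3 hardly differed, at −0.002 and −0.004. On the deposited scale or after median centring 7 of 8 were lower. The score of juvenile replicate 2 was below that of every late pubertal animal. Their summed normalized signal ran from 17638 to 18429 in late pubertal animals, against 17794 to 20404 in juvenile animals, and the dimmest, Syt1, had a mean log2 level of 9.59, so no marker was near 0. L1cam correlated with the same score at r = 0.84 (exact permutation p 0.00997, adjusted 0.162; rho 0.55, exact p 0.133; r = 0.74 without the 2 extreme arrays) and Cntnap1 at r = 0.75 (exact p 0.0231, adjusted 0.251; rho 0.77, exact p 0.0214; r = 0.57 without them). Ncam1 1368320_at correlated with the astrocyte score at r = 0.80 (exact p 0.00842, adjusted 0.162; rho 0.83, exact p 0.00827; r = 0.68 without juvenile replicate 2 and early pubertal replicate 10; 0.93 within stages). The other Ncam1 probe sets did not share this relation. Brightest 1379389_at gave r = 0.12 (exact permutation p 0.766; 0.42 within stages) and 1377368_at r = 0.04 (exact permutation p 0.916; −0.82 within stages). Ptprz1 1368350_at gave r = −0.01 with the astrocyte score (exact permutation p 0.974). Ptprz1 1388015_at gave −0.62 with it (exact permutation p 0.0787, adjusted 0.397), and −0.03 without juvenile replicate 2 and early pubertal replicate 10. No score of oligodendrocyte precursor markers was set against the members. The part of cell type content in the differences between stages was not tested.

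Ptprz1 on its bright probe set went with the actin ratio, at Pearson r = 0.87 (exact permutation p 0.003, adjusted 0.0975) and Spearman rho = 0.93 (exact p 0.00075, adjusted 0.0244). Within stages r was 0.92, and r was 0.80 without juvenile replicate 2 and late pubertal replicate 20, the arrays with the highest ratios. Early pubertal replicate 10, late pubertal replicate 20 and juvenile replicate 2 had the highest Ptprz1 levels, 10.72, 10.67 and 10.64, and actin ratios of 2.86, 3.24 and 3.16. The other Ptprz1 probe set, 1388015_at, gave r = 0.62 (exact p 0.0745, adjusted 0.397; rho 0.28, exact p 0.463) and r = −0.25 without the same arrays. Cntn1 went the other way, at r = −0.78 (exact p 0.0161, adjusted 0.209; rho −0.80, exact p 0.0138; r = −0.60 without the 2 extreme arrays). So did Nrcam 1371036_at, at r = −0.71 (exact p 0.0274, adjusted 0.255; rho −0.70, exact p 0.0433; r = −0.50 without them). The other Nrcam probe sets, 1377001_at and 1392734_at, gave r = −0.17 and 0.14 (exact p 0.649 and 0.716). The actin ratio and the neuron score were themselves related at r = −0.64 (exact p 0.0687; rho −0.72, exact p 0.0369; r = −0.50 without the same arrays), and which of these measures a member follows was not tested. The part of RNA quality in these values was not tested.

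**Figure D3:**
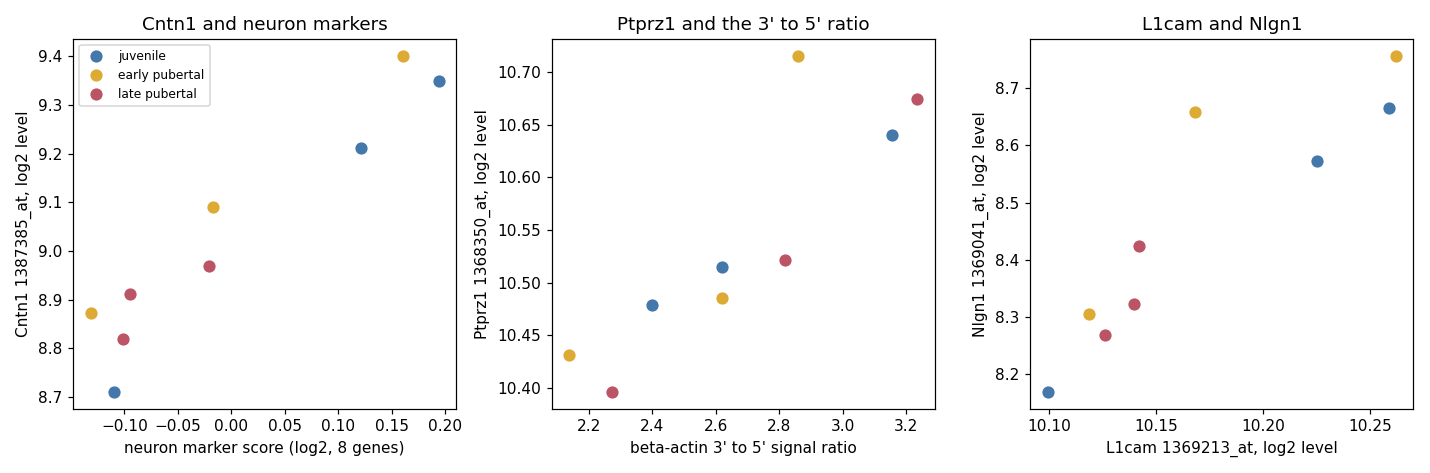
Each point is 1 of 9 arrays, coloured by stage. Left, normalized log2 level of Cntn1 (vertical) against the neuron marker score (horizontal), r = 0.95; middle, log2 level of Ptprz1 1368350_at against the beta-actin 3′ to 5′ signal ratio, r = 0.87; right, log2 level of Nlgn1 1369041_at against that of L1cam, r = 0.91. Late pubertal points lie in the lower part of the left and right panels and are spread along the middle one.

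The genes whose pattern over the 9 arrays was most like each member were listed by Pearson correlation among 10599 other named genes, as a description. Cntn1 was closest to Epb41l1, a cytoskeletal linker of neurons, at 0.98, and to the proton-gated channel subunit Asic2 at 0.96. L1cam was closest to the zinc transporter Slc39a10 and the RNA polymerase subunit Polr3k, both at 0.98 to 0.99. Cntnap1 was closest to Igsf8, an immunoglobulin superfamily membrane protein, and to LOC102549016, both at 0.93. The bright probe sets of Ncam1 and Ptprz1 were closest to the myelin-associated glycoprotein Mag at 0.93 and to the growth factor Vegfb at 0.97, followed by Snx18 at 0.93 and Maf at 0.94. Nrcam was closest to Akirin2 at 0.96 and Xpr1 at 0.95, and the bright Nlgn1 probe set to Saxo4 at 0.95 and Rabep1 at 0.93. All share the same 9 libraries, and the highest of 10599 correlations over 9 arrays is high by selection.

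Partners and relatives of the members were then counted in 5 lists of 45 genes, of which 38 are on the array by name and 33 were tested, with the brightest tested probe set of each. Limma called 0 of 33 in each comparison, as it called 0% of all tested probe sets. Between early pubertal and juvenile animals 11 were higher and 22 lower, between late pubertal and juvenile animals 12 and 21, and between late and early pubertal animals 18 and 15, where 50.4%, 50.4% and 49.9% of all tested probe sets had a difference below 0. On the deposited scale 31, 21 and 3 of 33 were lower in these comparisons. There, 20, 20 and 16 of 33 lay below the shifted median of all tested probe sets. After median centring 23, 21 and 16 were lower, and 20, 20 and 16 lay below the median of all tested probe sets. At an unadjusted limma p under 0.05 there were 0 higher and 4 lower in early pubertal against juvenile animals (1.92% and 2.54% of all tested), and 1 higher and 3 lower in late pubertal against juvenile animals (2.23% and 1.92%). Stages did not overlap for 2 of 33 in early pubertal and 3 of 33 in late pubertal against juvenile animals, beside 8.3% and 11.4% of all tested.

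In the list of ligands and matrix genes drawn up for Ptprz1 and Cntn1, 4 of 6 tested genes were higher in late pubertal than in juvenile animals. These were Mdk, Tnr, Bcan and Vcan. The median of the list was 0.16 beside −0.001 over all tested probe sets. Which genes of the list bind Ptprz1 or Cntn1 was not analysed here. Pleiotrophin (Ptn), a heparin-binding growth factor and Ptprz1 ligand, differed by −0.22 ± 0.08 (log2, SE, n = 3 per stage) in early and −0.19 ± 0.08 in late pubertal animals relative to juvenile ones. Midkine (Mdk), its close relative and also a ligand, had 0.10 ± 0.11 and 0.30 ± 0.11. The pair of ligands lay on opposite sides of 0 in late pubertal animals, and limma adjusted p was 0.974 for each over the 3 stages. Ncan, a matrix proteoglycan, lay below the filter.

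Other immunoglobulin-class adhesion molecules were higher for 5 and lower for 5 of 10 tested members in late pubertal against juvenile animals, with a median of −0.01. Neurofascin (Nfasc), which joins contactin and Cntnap1 at the axoglial junction, had −0.19 ± 0.12 (SE) in early and −0.28 ± 0.12 in late pubertal animals on its brightest probe set. The other 4 Nfasc probe sets disagreed, from −0.26 to 0.34 in late pubertal animals. Cntn4, a contactin of axon guidance, had 0.27 ± 0.17 in early and −0.07 ± 0.17 in late pubertal animals.

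In the list of sialyltransferases and shedding proteases, the 4 tested members were St8sia3, Adam10, Adam17 and Bace1. Among these, 1 was higher and 3 were lower in late pubertal against juvenile animals, with a median of −0.08. St8sia2 and St8sia4, which make polysialic acid on Ncam1, lay below the filter and were not tested. Adam10, a protease that sheds L1cam and other adhesion molecules, had 0.09 ± 0.18 in early and −0.17 ± 0.18 in late pubertal animals, and −0.40 and −0.42 on its other probe set. St8sia3, a further sialyltransferase, had 0.03 ± 0.16 and −0.14 ± 0.16.

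Synaptic adhesion genes on their brightest probe sets were 1 higher and 6 lower out of 7 tested in early pubertal animals, and 2 higher and 5 lower in late pubertal animals, relative to juvenile ones, with medians of −0.13 and −0.03. These directions depended in part on the probe set. The other Dlg4 probe sets lay at −0.40 and 0.27 in early and −0.33 and 0.23 in late pubertal animals. Cadm3 had −0.18 and 0.05 on its other probe set, while that of Cadm1 kept its direction, at −0.12 and −0.13. Cadm1, an adhesion molecule between neurons and between astrocytes, had −0.26 ± 0.09 in early and −0.16 ± 0.09 in late pubertal animals. Nlgn2, the neuroligin of inhibitory synapses, had −0.25 ± 0.24 and 0.25 ± 0.24, and −0.26 and −0.36 on its other probe set, so its direction in late pubertal animals depended on the probe set.

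Genes of the axoglial junction and its cytoskeletal anchors were lower on the brightest probe set for 6 of 6 tested members in early pubertal and again in late pubertal animals relative to juvenile ones, with medians of −0.14 and −0.10, and 0 called by limma. The count of 6 of 6 was the same on the deposited scale and after median centring. Other probe sets of these genes did not all share the direction: Epb41l3, a membrane cytoskeleton linker, had 0.06 in early and −0.10 in late pubertal animals on its other probe set. Ank3 (ankyrin G), which anchors adhesion molecules at nodes and axon initial segments, had −0.36 ± 0.14 (SE, n = 3 per stage) in early and −0.44 ± 0.14 in late pubertal animals, and −0.28 and −0.49 on its other probe set. Ank2 (ankyrin B), which supports the axon shaft, had −0.17 ± 0.06 and −0.05 ± 0.06, with its other probe sets at 0.31 and 0.03 in early and 0.15 and −0.12 in late pubertal animals. Per array, the mean deviation of this list was 0.19, 0.06 and 0.06 in juvenile, −0.16, 0.13 and −0.12 in early pubertal animals, then −0.01, −0.01 and −0.14 in late pubertal animals. All 3 juvenile animals were thus above all late pubertal animals, while early pubertal replicate 8 lay inside the juvenile range. That separation was not particular to the axoglial list. Mean deviations of the ligand, astrocyte, microglia and leptomeningeal lists did not overlap between juvenile and late pubertal animals either. The microglia list was lower in late pubertal animals and the other lists just named were higher. The remaining lists overlapped. The neuron markers above were also lower, and oligodendrocyte markers were higher for 4 and lower for 2 of 6 in late pubertal against juvenile animals, with a median of 0.003. The part of these cell types in the axoglial list was not tested.

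**Figure D4:**
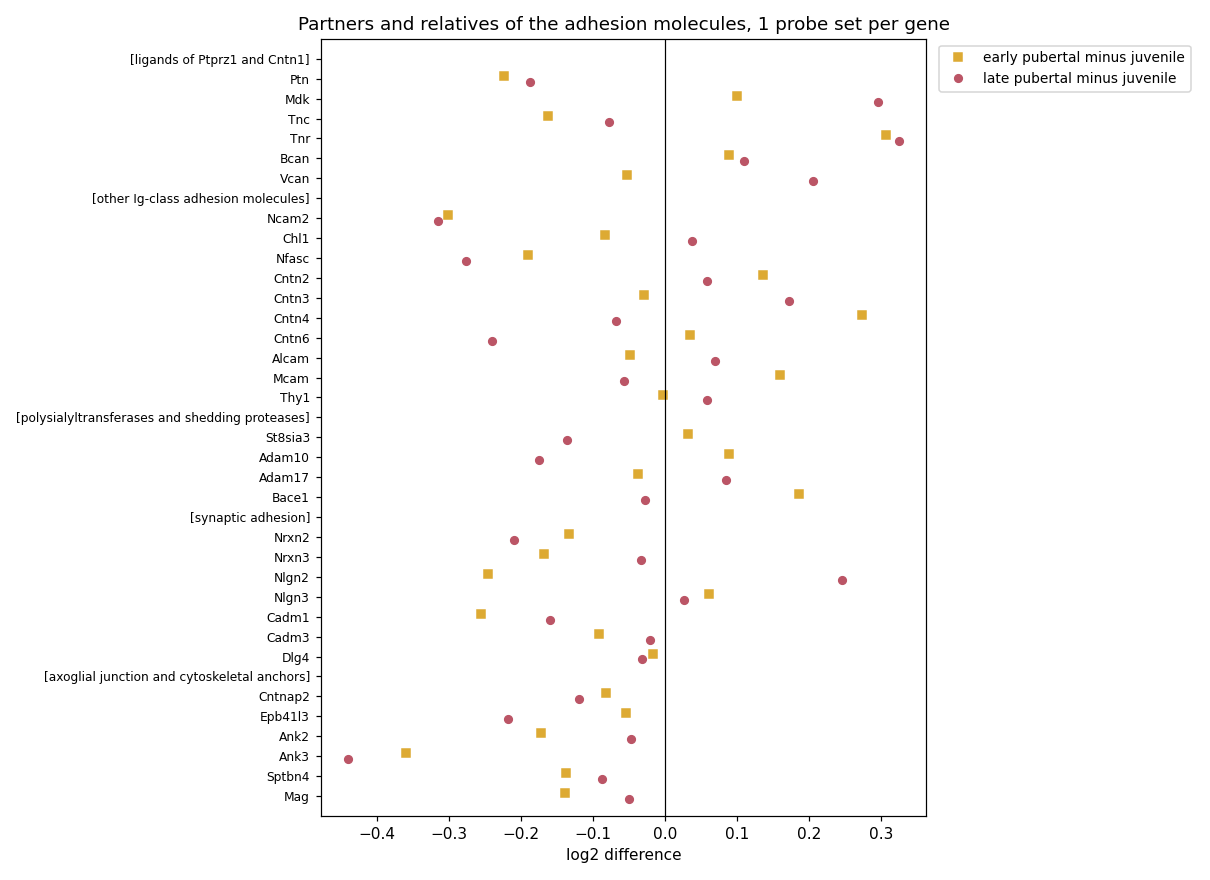
Log2 difference from juvenile animals (horizontal axis) of 33 partner and relative genes, 1 probe set per gene, grouped by list, for early pubertal (squares) and late pubertal animals (circles). All 6 genes of the axoglial list lie left of 0 at both stages on these probe sets, while Ptn and Mdk lie on opposite sides.

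Markers of other cells that the tissue holds were counted between late pubertal and juvenile animals in the same way, and limma called 0 of them. Astrocyte markers were higher for 6 of 8, oligodendrocyte precursor markers for 1 of 3, microglia markers for 0 of 6, endothelial markers for 1 of 5, hypothalamic neuron peptides for 2 of 8, pituitary hormone genes for 1 of 3 and choroid plexus markers for 1 of 2 tested. Leptomeningeal markers were higher for 5 of 5, by a median of 0.40. Their part in the members' values was not tested.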

How the data were processed

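Signal intensity per probe set was deposited on a linear scale, made by the authors with MAS5, per the submitters' processing notes. The sources used here do not give its version or target level. Of 31099 probe sets, 57 controls were left out. Values were taken as log2(signal + 16) and quantile-normalized, and probe sets whose mean lay above the 40th percentile were tested. Limma 3.58.1 in R 4.3.3 fitted 1 mean per stage over all 9 arrays with eBayes and a trend on brightness, which gave 5.8 prior beside 6 residual degrees of freedom. Its p-values are two-sided and were adjusted by Benjamini-Hochberg over all tested probe sets, at a threshold of 0.05. The fit was also run on simulated data with planted shifts larger than any member difference. That run cannot show how the fit performs on differences of the size seen here. Relations across arrays used exact two-sided permutation over 362880 orders.

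Members, lists and tests were chosen with earlier results of these data known. All probe sets of the members are given, the 2 genes given with an SE in each partner list have the smallest F test p, and the 2 genes most like each member have the highest Pearson r. Groups and replicate numbers came from sample titles. The labels give no batch or scan date, no pair of arrays held identical values, and p-values measure the spread between these animals only.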

Additional observations from a re-analysis of the deposited data

How the results depend on the processing

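The number of arrays limits every value, and no member probe set passed the threshold under any alternative, the lowest adjusted limma p being 0.203, with array weights. No paired analysis was possible because the stages share no replicate numbers. Over all probe sets, 0 calls became 10 (early pubertal against juvenile), 1 (late pubertal against juvenile), 21 (late against early pubertal) and 16 (F test) on the deposited scale, whose medians are shifted, and 1 for late pubertal against juvenile with array weights. Leaving out 1 array gave 0 to 1 calls for late pubertal against juvenile and for the F test, 1 without juvenile replicate 2, and 0 in the others. A filter at the 60th percentile left out Ncam1 1377368_at. The log2 differences that changed sign were as follows, and apart from the shifted scale the cause was not tested. On the deposited scale, early pubertal against juvenile gave −0.193 for Ncam1 1368320_at, −0.154 for Nlgn1 1369041_at, −0.248 and −0.202 for Nrcam 1371036_at and 1377001_at, and −0.231 for Cntn1. Late pubertal against juvenile gave −0.0234, −0.00365 and −0.00815 for the 3 Nrcam probe sets. Late against early pubertal gave 0.218 for Ncam1 1368320_at, 0.195 for Ptprz1 1368350_at, 0.00243 and 0.222 for Nlgn1 1369041_at and 1381583_at, 0.169 for L1cam, 0.224 and 0.198 for Nrcam 1371036_at and 1377001_at, and 0.0178 for Cntn1. Median centring gave −0.0357 for Nrcam 1371036_at and −0.0197 for Cntn1 in early pubertal against juvenile, −0.0357, −0.016 and −0.0205 for the 3 Nrcam probe sets in late pubertal against juvenile, and 7.72e-05 for Nrcam 1371036_at in late against early pubertal animals. Array weights gave 0.0713 for Ptprz1 1368350_at, −0.0105 for Nrcam 1371036_at and −0.139 for Cntn1 in early pubertal against juvenile, and −0.0288 for Ncam1 1368320_at, 0.0107 and 0.0487 for Ptprz1 1368350_at and 1388015_at, and −0.0142 for Nrcam 1371036_at in late pubertal against juvenile. Leaving out 1 array at a time, early pubertal against juvenile ran from −0.0446 to 0.214 for Ncam1 1368320_at, −0.0855 to 0.0557 and −0.211 to 0.0374 for Ptprz1 1368350_at and 1388015_at, −0.0457 to 0.239 for Nlgn1 1369041_at, −0.0598 to 0.0211 for L1cam, −0.0352 to 0.0506 for Nrcam 1371036_at and −0.159 to 0.161 for Cntn1. Late pubertal against juvenile ran from −0.0622 to 0.148 and −0.0532 to 0.0113 for Ncam1 1368320_at and 1379389_at, −0.086 to 0.0542 and −0.19 to 0.116 for Ptprz1 1368350_at and 1388015_at, and −0.0374 to 0.0483, −0.0235 to 0.0614 and −0.0401 to 0.124 for Nrcam 1371036_at, 1377001_at and 1392734_at. Late against early pubertal ran from −0.164 to 0.0657 and −0.0165 to 0.111 for Ncam1 1368320_at and 1379389_at, −0.0855 to 0.0726 and −0.0689 to 0.168 for Ptprz1 1368350_at and 1388015_at, −0.0208 to 0.0129 for Nrcam 1371036_at, and −0.0979 to 0.0436 for Nlgn1 1381583_at. Ncam1 1377368_at and Cntnap1 kept their direction in late pubertal against juvenile animals in each setting that tested them. Alternatives for the relations and the lists were chosen after seeing the data. Without 1 array, r ran from 0.943 to 0.968 for Cntn1 with the neuron score. It ran from 0.832 to 0.962 for Ptprz1 1368350_at with the actin ratio and from 0.867 to 0.976 for L1cam with Nlgn1 1369041_at. For Cntn1 with the actin ratio, r was −0.479 on the deposited scale (exact permutation p 0.191) and ran from −0.954 to −0.679 without 1 array, with exact p of 0.0512 without juvenile replicate 2 and 0.0653 without early pubertal replicate 8.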
